A study of Mus musculus with 6 samples.

Results

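Transcripts of 7 matrix metalloproteinases (Mmp9, Mmp2, Mmp14, Mmp15, Mmp16, Mmp17 and Mmp24) are described here in the visual cortex of mice with an altered Mmp9 UTR. The 7 genes were fixed by symbol and found through their Ensembl identifiers in a GRCm38 annotation, and each had 1 row among the 55487 genes of the count table. The mice were of the strain B6.CBA/Tar and 28 days old. Both Mmp9 alleles were wild type in the WT mice (WT/WT), 1 allele carried the mutation in the het mice (UTRmut/WT), and both carried it in the UTRmut mice (UTRmut/UTRmut). Each genotype had 1 female and 1 male library of total RNA, 6 libraries in all, and no other treatment is named. The labels give neither the altered bases nor which of the untranslated regions they lie in, and do not say whether a library held 1 animal or several. The p-values therefore measure only the spread between these libraries, part of which may be technical. The libraries of a genotype differ in sex, so in the genotype comparisons that spread includes any difference between the sexes.

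Matrix metalloproteinases are zinc-dependent proteases that cut matrix proteins, cell adhesion molecules and other proteases outside the cell. They are made as inactive precursors. A cysteine in the pro-domain, the cysteine switch, occupies the zinc until the pro-domain is cut away. Mmp9 and Mmp2 encode the secreted gelatinases, and in cortex MMP-9 is known for its role in synaptic and ocular dominance plasticity. The other 5 encode membrane-type enzymes, held at the cell surface by a transmembrane segment (Mmp14, Mmp15, Mmp16 and Mmp24) or by a lipid anchor (Mmp17). Many membrane-type enzymes are activated inside the cell by furin-like proteases, and MMP-14 on the cell surface activates pro-MMP-2.

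The coding bases of the cysteine switch are the feature by which the 7 genes can be recognised as a family, and they are shown 5′ to 3′ as 21 bases of each gene's main transcript (GENCODE, GRCm38), with the cysteine codon in capitals.
Mmp9: ccacgcTGTggtgtcccagac
Mmp2: ccaagaTGTggcaacccagat
Mmp14: cctcgcTGTggtgttccggat
Mmp15: ccccgaTGTggggttcctgat
Mmp16: cctcgaTGCggtgtaccagac
Mmp17: cctcgaTGCtcccttccggac
Mmp24: cctcgaTGTggcgtccctgat
All 7 genes lie on the plus strand. The stretch is in exon 2 of Mmp9 (chromosome 2, 164948985 to 164949005) and of Mmp2 (chromosome 8, 92830765 to 92830785). It is in exon 3 of Mmp14 (chromosome 14, 54436151 to 54436171), Mmp15 (chromosome 8, 95366307 to 95366327), Mmp16 (chromosome 4, 17996207 to 17996227), Mmp17 (chromosome 5, 129594983 to 129595003) and Mmp24 (chromosome 2, 155798079 to 155798099). Between members 3 to 10 of the 21 bases differed, with the smallest number between Mmp15 and Mmp24 and the largest between Mmp2 and Mmp17.

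A run of codons for arginine, any residue, lysine or arginine, and arginine, the minimal motif of furin, was looked for in the codons shortly after the switch. It was found in the 5 membrane-type genes and in neither gelatinase, so it separates the classes. The last match of each is shown, with its final arginine codon in capitals.
Mmp14: cggaggaagCGC
Mmp15: cggcggaaaCGT
Mmp16: cgtcgaaagCGC
Mmp17: agaaggaagCGG
Mmp24: agaaataagCGA
The 5 stretches all lie in exon 3 of their genes, on chromosome 14 (54436202 to 54436213), 8 (95366364 to 95366375), 4 (17996258 to 17996269), 5 (129595025 to 129595036) and 2 (155798124 to 155798135) in the order shown. Despite the shared domains, the main transcripts had little exact sequence in common. The longest identical run was 12 to 26 bases over the 21 pairs, the longest being that of Mmp15 and Mmp24. Exons of Mmp24 share 637 bases with exons of BC029722 on the opposite strand, which had 254 to 352 counts in a library. The strand setting of the counting is not given in the sources used here, so the 2 genes' reads may not be fully separated.

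The genes themselves differ in size and structure. Mmp9 (ENSMUSG00000017737) spans 164940780 to 164955850 on chromosome 2 and Mmp24 (ENSMUSG00000027612) 155775342 to 155818366 on the same chromosome, 9.12 Mb before it. Mmp2 (ENSMUSG00000031740, 92827291 to 92853420) and Mmp15 (ENSMUSG00000031790, 95352268 to 95375080) share chromosome 8, at a distance of 2.5 Mb. Mmp14 (ENSMUSG00000000957) lies on chromosome 14 (54431612 to 54445364), Mmp17 (ENSMUSG00000029436) on chromosome 5 (129584169 to 129611099) and Mmp16 (ENSMUSG00000028226) on chromosome 4 (17852893 to 18119145), the longest locus of the 7. The main transcripts of the gelatinases have 13 exons. Those of Mmp14, Mmp15, Mmp16 and Mmp17 have 10, and that of Mmp24 has 9.

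Total counts were 9500090 to 11966579 in the 6 libraries, so that 3 counts, the limit that a count of 0 allows, stood for 0.251 to 0.316 CPM (counts per 1000000 counts of a library). Markers of cortical excitatory neurons were abundant, with Slc17a7 at 881 to 949 CPM in the genotype means. Fibroblast markers, chosen for meninges and vessel walls, ranged from 406 to 863 CPM summed over 15 genes, and red blood cell markers from 96.8 to 232 CPM over 5 genes. Ptgds alone made up 62.5% to 76.5% of the fibroblast sum, and Pdgfra is also on the list of oligodendrocyte precursor markers, so the sum is not specific to fibroblasts. The choroid plexus list summed to 3.92 to 12.2 CPM over 10 genes in 5 libraries and to 52.3 CPM in the WT male, which stood apart in it.

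Of the 7 genes, 3 that encode membrane-type enzymes held most of the summed level. In CPM per kilobase of exon, Mmp17 had a level of 23.9 ± 1.23 (SD, n = 6), Mmp24 of 11.99 ± 0.791 and Mmp16 of 10.6 ± 0.726. These 3 genes together held 90.9% to 94.0% of the summed level of the 7 in each library. Mmp15 followed at a level of 1.75 ± 0.433 and Mmp14 at 1.24 ± 0.359. The gelatinases came last, Mmp2 at 0.555 ± 0.183 and Mmp9 at 0.239 ± 0.0923. By this level per length, Mmp17 stood above 89.4% of the tested genes and Mmp9 above 2.48%.

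**Figure D1:**
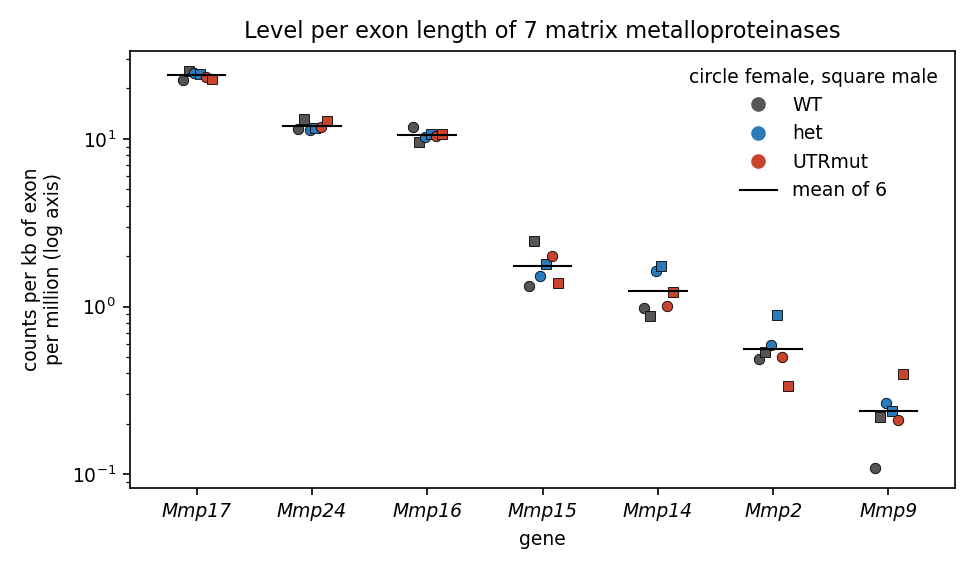
Level of each gene in CPM per kilobase of exon on a log axis, with 1 point per library (circles female, squares male, colour by genotype) and a line at the mean of 6. Mmp17, Mmp24 and Mmp16 sit at 9.58 or above, Mmp15 and Mmp14 between 0.884 and 2.46, and Mmp2 and Mmp9 at 0.887 or below.

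The library ranges of Mmp17 and Mmp24 did not overlap, nor did those of Mmp16 and Mmp15. Those of Mmp24 and Mmp16, Mmp15 and Mmp14, Mmp14 and Mmp2, and Mmp2 and Mmp9 overlapped. Compared within each library, Mmp14 was above Mmp2 in 6 of 6, with a mean level 2.24-fold higher. Mmp24 was above Mmp16, Mmp15 above Mmp14 and Mmp2 above Mmp9 in 5 of 6 libraries each. The order within the pair of Mmp24 and Mmp16, and within that of Mmp15 and Mmp14, also turned when the longest coding transcript was used as the length: Mmp16 then had 18.3 and Mmp24 13.04, and Mmp14 had 2.29 and Mmp15 1.84. The spread over the 6 libraries was smallest in the abundant genes. The coefficient of variation was 5.15% for Mmp17, 6.59% for Mmp24 and 6.87% for Mmp16, against 24.8% for Mmp15, 28.9% for Mmp14, 32.9% for Mmp2 and 38.6% for Mmp9. These values include counting error, which is larger at low counts. Estimated within genotypes with counting error set aside, the coefficient was 7.93% for Mmp17, 8.04% for Mmp24 and 8.10% for Mmp16. It was then 12.5% for Mmp14, 19.0% for Mmp15, 19.0% for Mmp2 and 21.7% for Mmp9.

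No genotype comparison gave a called change in any of the 7 genes. Log2 folds were fitted to all genes with enough counts, levels are CPM after TMM scaling (a factor per library computed over all genes), and an adjusted p under 0.05 counted as passing. In UTRmut against WT, 0 of 7 passed (edgeR quasi-likelihood test, Benjamini-Hochberg adjusted p = 0.999 for each), where 0.0062% of the 16119 genes tested passed. In het against WT 0 of 7 passed as well (adjusted p = 0.9998 for each, edgeR), against 0.0124% of all genes, and in UTRmut against het again 0 of 7 (adjusted p = 0.9999 for each, edgeR), against 0.0124%. The change per mutant allele gave 0 of 7 (adjusted p = 0.998 for each, edgeR), against 0.0% of all genes. DESeq2 called 0 of the 7 in these 4 comparisons. At an unadjusted p under 0.05 there was 1 of 7 in het against WT and 1 in UTRmut against het, Mmp14 both times, and none in the other comparisons, against 2.71% of all genes in UTRmut against WT, 2.37% in het against WT, 2.8% in UTRmut against het and 3.12% per allele. The comparisons share libraries, so their values are not independent of each other. The median log2 fold of the 7 was -0.02 in UTRmut against WT and 0.04 in het against WT, beside -0.01 and 0.00 over all genes tested.

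**Figure D2:**
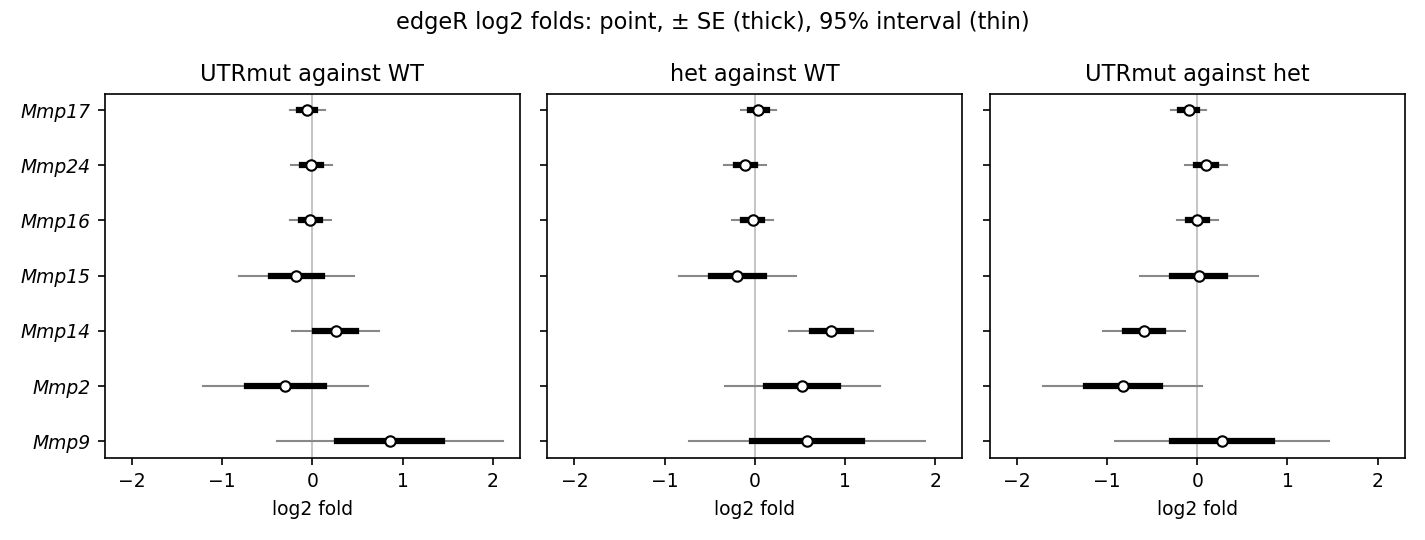
Log2 folds of the 7 genes in the 3 comparisons between genotypes, with points for the edgeR estimate, thick bars for the SE and thin bars for the 95% interval. The intervals of Mmp17, Mmp24 and Mmp16 stay within 0.34 of 0, while that of Mmp9 in UTRmut against WT runs from -0.40 to 2.11.

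Mmp9, the mutated gene and 1 of the gelatinases, had few counts in every library: 4 in the WT female and 9 in the WT male, 9 in each het library, and 8 in the UTRmut female and 16 in the UTRmut male. Its level was 0.386 and 0.777 CPM in WT mice, 0.937 and 0.841 in het mice and 0.747 and 1.39 in UTRmut mice. The WT female was lowest and the UTRmut male highest, and the UTRmut libraries overlapped those of WT because the UTRmut female lay below the WT male. As mean ± SD (n = 2) the level was 0.582 ± 0.277 CPM for WT, 0.889 ± 0.0680 for het and 1.07 ± 0.456 for UTRmut mice. Both het libraries were above both WT libraries, a separation that 13.4% of all tested genes also showed in that direction.

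Within each sex, Mmp9 was 1.94 times as high in the UTRmut as in the WT library of the females and 1.79 times as high in the males. Counting error alone was wide at this depth. The exact 95% Poisson interval was 0.105 to 0.988 CPM in the WT female and 0.796 to 2.26 CPM in the UTRmut male, and these overlap. The 95% interval of the log2 fold of UTRmut against WT was -0.40 to 2.11, which spans fold changes of 0.760 to 4.31, around an estimate of 0.86 (SE 0.58). For the het mice the estimate was 0.58 (SE 0.61). With a library left out, the log2 fold of UTRmut against WT ran from 0.34 (without the UTRmut male) to 1.46 (without the WT male), and that of het against WT from 0.18 (without the WT female) to 1.18 (without the WT male). Mmp9 entered the test through 2 libraries, the het female and the UTRmut male, which reached the filter's minimum of 0.930 CPM before TMM scaling, while neither WT library did.

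Mmp2, the other gelatinase, had 17 and 21 counts in the WT female and male, 19 and 32 in het and 18 and 13 in UTRmut. Its level was 1.64 and 1.81 CPM in WT mice, 1.98 and 2.99 in het mice and 1.68 and 1.13 in UTRmut mice. The het male stood highest and the UTRmut male lowest, while the 3 females were close together at 1.64 to 1.98 CPM. Both het libraries were above all others. The Poisson intervals of the het female (1.19 to 3.09 CPM) and the WT male (1.12 to 2.77 CPM) overlap nearly whole. The log2 folds of Mmp2 were 0.53 (SE 0.40) for het against WT and -0.83 (SE 0.41) for UTRmut against het, and UTRmut and WT overlapped at -0.30 (SE 0.43). None passed. With a library left out, the fold of het against WT ran from 0.19 (without the het male) to 0.79 (without the het female). That of UTRmut against het ran from -1.13 (without the UTRmut female) to -0.49 (without the het male), and that of UTRmut against WT from -0.61 (without the UTRmut female) to -0.04 (without the UTRmut male).

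Mmp14, the surface activator of pro-MMP-2, had 61 counts in each WT library, 93 and 111 in the het female and male, and 64 and 84 in UTRmut. Its level was 5.88 and 5.27 CPM in WT mice, 9.68 and 10.4 in het mice and 5.98 and 7.31 in UTRmut mice. The means were 5.58 ± 0.435 CPM for WT, 10.02 ± 0.487 for het and 6.64 ± 0.943 for UTRmut mice (SD, n = 2). The het libraries stood apart from the other 4, and the UTRmut libraries lay just above those of WT without overlap. The gap was narrow between the WT and the UTRmut female, at 5.88 and 5.98 CPM, whose Poisson intervals of 4.50 to 7.56 and 4.60 to 7.63 CPM overlap nearly whole.

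The log2 fold of Mmp14 was 0.85 (SE 0.22, 95% interval 0.38 to 1.31) for het against WT and -0.59 (SE 0.21, 95% interval -1.05 to -0.13) for UTRmut against het. For UTRmut against WT it was 0.26 (SE 0.22), and per mutant allele 0.12 (SE 0.17), the highest level being in the genotype with 1 mutant allele. The unadjusted p were 0.00163 for het against WT and 0.0149 for UTRmut against het (edgeR), and neither passed over all genes. The fold for the het mice stayed between 0.77 and 0.92 over the 6 fits that each left out a library, and its adjusted p was 0.317 to 0.99999 over 13 alternatives (edgeR and DESeq2, Benjamini-Hochberg).

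Groups that do not overlap are common with 2 libraries each. In het against WT, 3 of 7 members lay higher without overlap (Mmp9, Mmp2 and Mmp14), against 13.4% of all tested genes. Mmp9 entered the test through the het female and the UTRmut male, with neither WT library at the filter's minimum. Its place among the 3 is therefore partly set by the filter. In UTRmut against WT, 1 of 7 did (Mmp14), against 14.0%. In UTRmut against het, 3 of 7 lay lower without overlap (Mmp2, Mmp14 and Mmp17), against 17.9%, and 1 of 7 lay higher (Mmp24), against 16.4%.

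**Figure D3:**
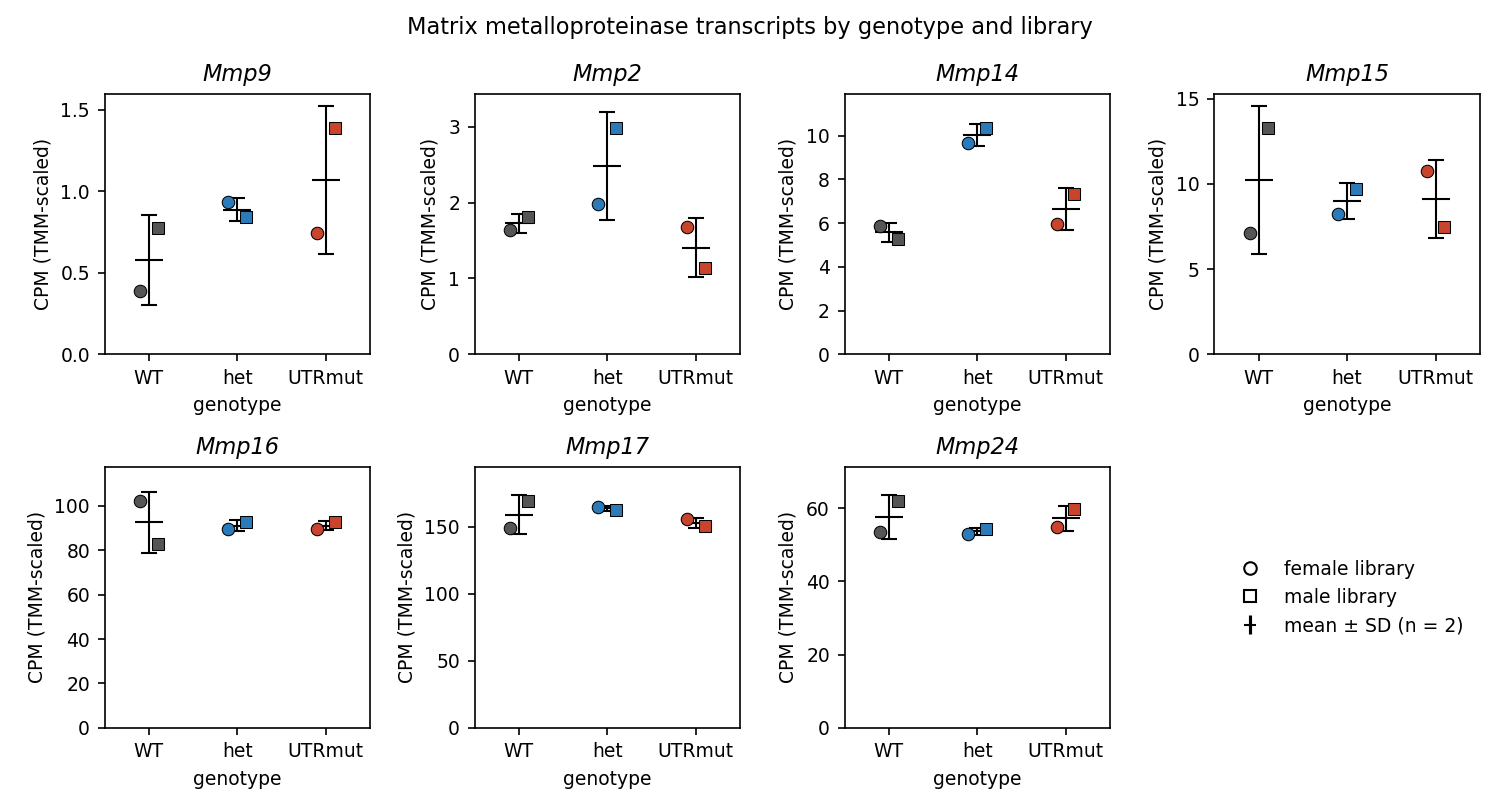
TMM-scaled CPM of each gene by genotype, with circles for female and squares for male libraries and bars for the mean ± SD of 2 libraries; each vertical axis starts at 0. Mmp14 is highest in both het libraries (9.68 and 10.4 CPM), Mmp15 differs between the WT libraries (7.14 and 13.3 CPM), and Mmp16, Mmp17 and Mmp24 vary little.

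The 3 abundant genes had narrow intervals. Mmp16, a transmembrane enzyme, had levels of 102 and 83.0 CPM in WT mice, 89.4 and 92.8 in het mice and 89.7 and 92.7 in UTRmut mice. The WT female was highest and the WT male lowest, with the 4 libraries of mutant carriers between them. Its log2 fold was -0.02 (SE 0.10, 95% interval -0.25 to 0.20) for UTRmut against WT, and for het it was -0.02 (SE 0.11).

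Mmp17, the lipid-anchored enzyme, had levels of 149 and 169 CPM in WT mice, 165 and 162 in het mice and 156 and 150 in UTRmut mice. Both UTRmut libraries were below both het libraries and within the range of WT. Its log2 fold was -0.06 (SE 0.09, 95% interval -0.25 to 0.14) for UTRmut against WT, 0.04 (SE 0.09) for the het mice and -0.10 (SE 0.09) for UTRmut against het. In linear terms the interval of UTRmut against WT ran from 0.839-fold to 1.10-fold.

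Mmp24, the transmembrane enzyme also called MT5-MMP and known from neurons, had levels of 53.3 and 61.9 CPM in WT mice, 52.98 and 54.3 in het mice and 54.8 and 59.6 in UTRmut mice. The males were above the females in each genotype. The log2 fold of females against males was -0.12 (SE 0.08) and did not pass, and that of UTRmut against WT was -0.01 (SE 0.11, 95% interval -0.24 to 0.22). Both het libraries lay below both UTRmut libraries, at a log2 fold of 0.09 (SE 0.11) for UTRmut against het.

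Mmp15, a transmembrane enzyme, had unequal counts in the libraries of 1 genotype: 74 in the WT female and 154 in the WT male, 79 and 104 in het, and 115 and 86 in UTRmut. Its level in the females was 7.14 CPM in WT mice, 8.22 in het mice and 10.7 in UTRmut mice, and in the males 13.3, 9.71 and 7.48. The females thus rank upward with the number of mutant alleles and the males downward, and the order of the sexes turns between het and UTRmut. Averaged over sex the level was 10.2 ± 4.36 CPM for WT mice, 8.97 ± 1.05 for het mice and 9.11 ± 2.302 for UTRmut mice (SD, n = 2 each). These means differed by less than the SD of the WT libraries and that of the UTRmut libraries. The WT and het means differed by more than the SD of the het libraries. Relative to WT, the log2 fold of Mmp15 was -0.18 (SE 0.29) in UTRmut and -0.19 (SE 0.29) in het mice.

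The change per mutant allele in Mmp15 was higher in females than in males by 0.71 on the log2 scale (SE 0.17, 95% interval 0.35 to 1.07; edgeR interaction of sex and allele number, Benjamini-Hochberg adjusted p = 0.0484). It was the 1 of 7 members that passed, where 1.2% of all tested genes passed (0.893% higher and 0.31% lower in females), and it stood by p at place 190 of the 194 that did. Each combination of sex and genotype is a single library. The spread in this fit therefore comes from the departure of the libraries from a straight line over allele number in each sex. The p rests on that line. The value was 0.62 to 0.81 in the fits that left out a library, and the call was lost without the WT female, the WT male, the UTRmut female or the UTRmut male (adjusted p = 0.364, 0.542, 0.584 and 0.144, edgeR), and without the robust option of the test (adjusted p = 0.0706; range over 10 alternatives with an adjusted p 0.00429 to 0.584). Among the other members Mmp16 had -0.17 (SE 0.08) in this comparison and Mmp17 0.12 (SE 0.07), and none of the other 6 passed. Between the sexes, with genotype as a covariate, 0 of 7 passed (edgeR adjusted p = 0.815 to 0.958; DESeq2 called 0), against 0.0372% of all tested genes (0.031% were lower in females). At an unadjusted p under 0.05 there were 0 of 7, against 6.99% of all genes, and in the sex difference of the allele effect 2 of 7 (Mmp15 and Mmp16), against 13.6%.

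**Figure D4:**
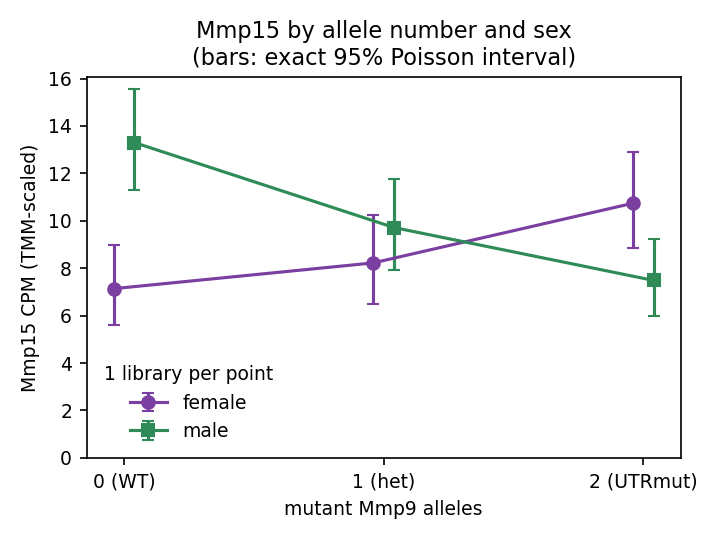
Mmp15 in TMM-scaled CPM against the number of mutant Mmp9 alleles, with 1 library per point, lines joining the libraries of a sex, and bars for the exact 95% Poisson interval of the count, which covers counting error only. The female libraries run from 7.14 to 10.7 CPM and the male libraries from 13.3 to 7.48 CPM.

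Marker lists moved between the same libraries, and fewer cells of a type cannot be told apart from less RNA per cell in bulk tissue. The fibroblast list, relative to its mean over the 6 libraries (median log2 over its 14 tested genes), was at -0.42 in the WT female, 0.22 in the WT male, 0.17 and 0.52 in het, and 0.23 and -0.59 in the UTRmut female and male. Mural cell markers had -0.07 and 0.22 for WT mice, -0.08 and 0.01 for het mice, and 0.18 and -0.31 for UTRmut mice. Relative levels of Mmp15 were -0.36 and 0.52, -0.16 and 0.08, and 0.22 and -0.29. The WT female and the UTRmut male were thus lowest, as they were on the fibroblast list. The same libraries were lowest on the astrocyte (-0.14 and -0.08), microglial (-0.13 and -0.02) and oligodendrocyte precursor lists (-0.05 and -0.12). The highest library was the WT male in Mmp15 and on the astrocyte and oligodendrocyte precursor lists. It was the het male on the fibroblast list and the het female on the microglial list. In the difference between the sexes per allele, 14 of 14 fibroblast genes had a positive log2 fold (median 0.55), as had 10 of 10 mural genes (median 0.40) and 4 of 4 tested red blood cell genes (median 0.51), beside a median of 0.00 over all genes tested. Other lists were less uniform. Positive were 6 of 10 endothelial genes (median 0.12), 7 of 10 microglial (0.15), 7 of 10 astrocyte (0.14), 7 of 10 oligodendrocyte precursor (0.07) and 7 of 10 excitatory neuron genes (0.08). Of the interneuron genes 9 of 10 were positive (0.11), of the choroid plexus genes 3 of 4 (0.09), and of the oligodendrocyte genes 1 of 10 (-0.12). Where 1.2% of all genes passed, 5 marker genes did (edgeR, Benjamini-Hochberg). They were 1 of 14 fibroblast genes (the collagen gene Col1a2, adjusted p = 0.0219) and 1 of 10 mural genes (the pericyte gene Rgs5, 0.00630). The others were 2 of 4 red blood cell genes (the globin genes Hbb-bs, 0.00630, and Hbb-bt, 0.0276) and 1 of 10 astrocyte genes (the water channel gene Aqp4, 0.0248). On the endothelial, microglial, oligodendrocyte precursor, oligodendrocyte, excitatory neuron, interneuron and choroid plexus lists 0 passed. Red blood cell markers had 0.61 in the WT male and -0.81 in the UTRmut male. The part of any of these cell types in the Mmp15 result was not tested.

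Of 14 fibroblast genes 12 had a positive log2 fold in het against WT (median 0.47) and 0 passed (edgeR). At an unadjusted p under 0.05 there was 1 of 14, against 2.37% of all genes. In UTRmut against het 13 of 14 were negative (median -0.48) and 0 passed. There 3 of 14 had an unadjusted p under 0.05 (edgeR), against 2.8% of all genes. Both comparisons use the same het libraries. The summed level of the list was 446 and 551 CPM in WT mice, 634 and 863 in het mice, and 701 and 406 in UTRmut mice. Most of that sum came from 1 gene, Ptgds, and the other 14 summed to 137 and 206 CPM in WT, 165 and 203 CPM in het, and 175 and 137 CPM in UTRmut mice. Mmp2 was lowest in the UTRmut male and highest in the het male, the libraries that were also lowest and highest in the median over the fibroblast genes. The endothelial list had the same extremes, with -0.11 in the UTRmut male and 0.19 in the het male. Between these extremes, the WT and UTRmut females lay apart on the fibroblast list (-0.42 and 0.23) but close in Mmp2 (-0.12 and -0.09). Mmp14 and the fibroblast list had the same order of the sexes among het libraries, with the male higher. Among UTRmut libraries the female was higher on the list (0.23 against -0.59) and the male in Mmp14 (0.03 against -0.26). Among WT libraries the male was higher on the list (0.22 against -0.42) and the female in Mmp14 (-0.28 against -0.43). The part of fibroblasts or endothelial cells in the levels of Mmp14 and Mmp2 was not tested. Endothelial markers summed to 69.9 to 83.9 CPM over 10 genes and microglial markers to 254 to 304 CPM over 10 genes. None of the genes of the fibroblast, mural, endothelial and microglial lists was at 0 in all libraries. Neutrophil markers, a blood source of Mmp9 protein, summed to 0.280 to 2.16 CPM over 9 genes.

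**Figure D5:**
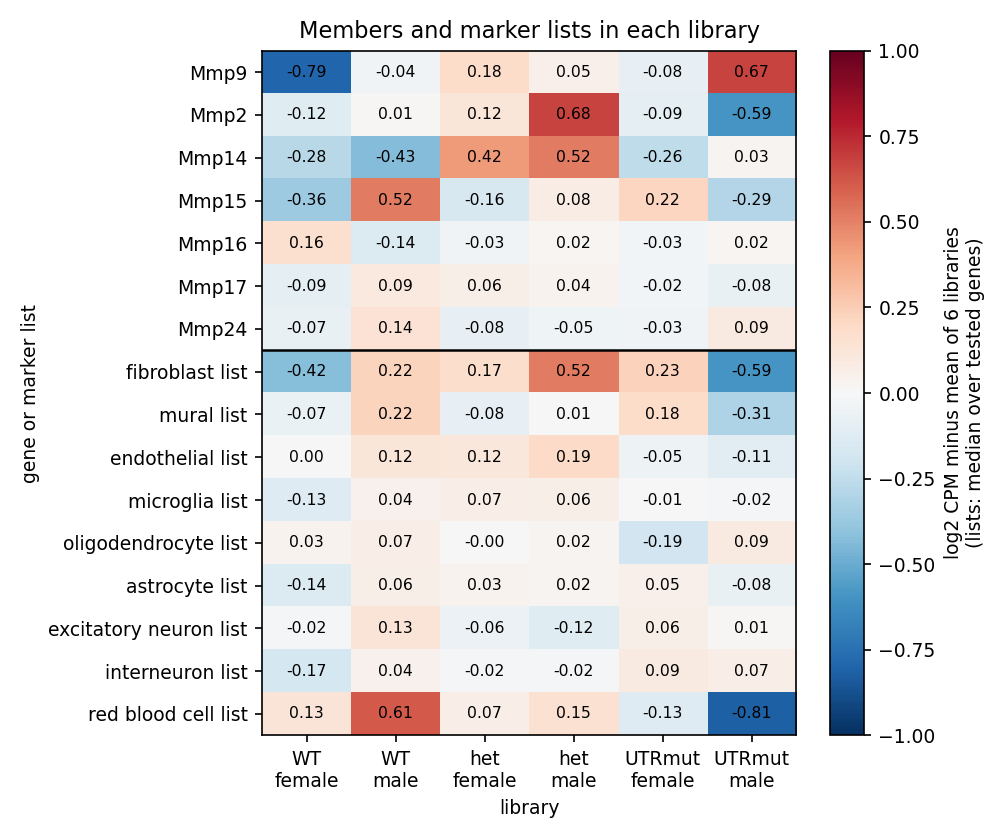
Log2 CPM of the 7 genes relative to each gene's mean over the 6 libraries (upper rows) and the median of the same quantity over the tested genes of 9 marker lists (lower rows), 1 column per library, red for higher and blue for lower. Mmp14 is at 0.42 and 0.52 in the het libraries, and the fibroblast list runs from -0.59 in the UTRmut male to 0.52 in the het male.

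The genes nearest to a member in their pattern over the 6 libraries were sought for Mmp2, Mmp14 and Mmp15, whose libraries differed by at least 0.5 on the log2 scale at a mean of at least 1 CPM. Likeness was the root-mean-square difference of centred log2 CPM over 13333 protein-coding genes, in which close matches to any pattern of 6 values can be found. For Mmp2 they were Crybg1 (0.10), Dleu7 (0.10) and Slc6a20a, an amino acid transporter (0.11). Crybg1 had 0.675 and 0.950 CPM in WT mice, 1.04 and 1.40 in het mice and 0.747 and 0.522 in UTRmut mice. For Mmp14 they were Ripk1, a kinase of inflammatory and cell death signalling (0.08), Map3k8 (0.11) and Gm9925 (0.11). Ripk1 had 6.17 and 5.79 CPM in WT mice, 9.37 and 9.62 in het mice and 6.35 and 7.66 in UTRmut mice. For Mmp15 they were AA986860 (0.06), Msmo1, an enzyme of sterol synthesis (0.07), and Aff1 (0.07). Msmo1 had 38.8 and 69.1 CPM in WT mice, 49.4 and 54.1 in het mice and 57.1 and 43.2 in UTRmut mice. The median difference over all these genes was 0.40 from Mmp2, 0.39 from Mmp14 and 0.33 from Mmp15.

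The rest of the family was little expressed, as Mmp9 itself was. Mmp28 had the most counts of the rest, 65 over all libraries, beside 55 for Mmp9. Of 16 other matrix metalloproteinase genes, 8 had no count in any library, the stromelysins Mmp3 and Mmp10 and the macrophage elastase Mmp12 among them, and all 16 together summed to 1.65 to 3.11 CPM in a library. Only Mmp28 of the 16 had enough counts to be tested, with 1.29 CPM in WT mice, 0.899 in het mice and 0.825 in UTRmut mice as genotype means (log2 fold of UTRmut against WT -0.68, SE 0.61).

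Of 7 genes for inhibitors and clearance receptors 6 were tested, and 3 had a positive and 3 a negative log2 fold in UTRmut against WT. In either genotype comparison with WT 0 passed (edgeR, Benjamini-Hochberg over all genes). At an unadjusted p under 0.05 there were 0 in both comparisons, against 2.71% and 2.37% of all genes. The median log2 fold was 0.04 in both. Timp4, a secreted inhibitor, had the smallest p, with 0.17 (SE 0.16) in UTRmut against WT. Reck, a membrane-anchored inhibitor, had -0.24 (SE 0.26) in UTRmut against WT and 0.09 (SE 0.26) in het against WT, and Lrp1, the receptor that clears MMP-9, had -0.06 (SE 0.10) and -0.08 (SE 0.10). Timp3, a matrix-bound inhibitor, had 0.15 (SE 0.18) in het against WT.

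Among 8 genes that cut or help cut pro-domains, 6 were tested and 0 passed in either comparison (edgeR). At an unadjusted p under 0.05 there were 0 in UTRmut against WT and 1 in het against WT, against 2.71% and 2.37% of all genes. Medians were -0.03 in UTRmut against WT and -0.04 in het against WT. Furin had 28.7 CPM in WT mice, 24.8 in het mice and 29.6 in UTRmut mice (log2 fold of het against WT -0.22, SE 0.16). Plat, whose product makes plasmin from plasminogen, had 41.1 CPM in WT mice, 50.4 in het mice and 45.0 in UTRmut mice (log2 fold of het against WT 0.29, SE 0.10, unadjusted p = 0.0126, edgeR), and Pcsk5, a furin-like protease, had -0.28 (SE 0.18) in UTRmut against WT. Plau, the urokinase gene, had 0.35 (SE 0.29) there. Plasminogen itself (Plg) had 9 counts over all libraries.

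Of 14 ADAM and ADAMTS metalloproteases all were tested and 0 passed in either comparison (edgeR). At an unadjusted p under 0.05 there were 0 in UTRmut against WT and 1 in het against WT, against 2.71% and 2.37% of all genes. In UTRmut against het 0 passed, and 3 of 14 had an unadjusted p under 0.05 (Adam12, Adam8 and Adam17, edgeR), against 2.8% of all genes. In UTRmut against WT 5 were positive and 9 negative (median -0.05), and in het against WT 10 were positive and 4 negative (median 0.07). Adam12, a metalloprotease of mesenchymal cells, had 4.33 CPM in WT mice, 6.55 in het mice and 3.26 in UTRmut mice, with log2 folds of 0.60 (SE 0.27) for het and -0.41 (SE 0.28) for UTRmut against WT. Adam8, a protease of myeloid cells, had -0.74 (SE 0.42) for UTRmut against WT. Adam17, a sheddase of membrane proteins, had -0.18 (SE 0.13) in the same comparison. The neuronal adhesion protein Adam23 had -0.19 (SE 0.09) for het against WT.

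Reported substrates and partners of membrane-type enzymes numbered 17, all of which were tested, and 0 passed in either comparison (edgeR). At an unadjusted p under 0.05 there were 0 in UTRmut against WT and 0 in het against WT, against 2.71% and 2.37% of all genes. The medians were -0.01 and 0.04. In UTRmut against WT, the 4 with the smallest p were Ephb2, a synaptic receptor tyrosine kinase, with -0.25 (SE 0.14), Acan, the aggrecan of perineuronal nets, with 0.51 (SE 0.27), the proteoglycan gene Sdc1 with 1.09 (SE 0.59), and the integrin gene Itgav with 0.21 (SE 0.12).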

How the data were processed

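Total RNA of the visual cortex was measured in 6 libraries, 2 for each of 3 genotypes. The authors deposited raw read counts per Ensembl gene, 1 column per library. The build GRCm38 and the tools HTSeq 0.6.0, HISAT2, Trimmomatic 0.39 and GATK 4.2.3.0 are named, without roles, per the submitters' processing notes. Strand setting and annotation release of the counting: not given in the sources used here. Total RNA libraries also hold unspliced RNA, which can add reads to exon counts.

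Of 55487 genes, 346 had no entry in the GENCODE annotation used for symbols, positions and lengths. The edgeR function filterByExpr, given the genotypes, a count of at least 10 and a total of at least 15, kept 16119 genes, all 7 members among them. After TMM scaling the counts went into edgeR 4.0.16 under R 4.3.3 (robust quasi-likelihood F test, Benjamini-Hochberg over all genes tested, threshold 0.05), with all 6 libraries in each fit. Standard errors were derived from F as |log2 fold|/√F. Relative levels used log2 CPM with a prior count of 2. Poisson intervals are exact, at 95%, and cover counting error only. Levels per length used the union of annotated exons. Only the fit of UTRmut against WT was also run on simulated counts, and its outcome is not given here. Changes were set there in genes above a level that Mmp9 and Mmp2 do not reach. The other comparisons, the interaction of sex and allele number among them, were not simulated. Alternatives were DESeq2 1.42.0, RLE factors, library totals, no filter, no robust option, a block for sex, the 4 libraries compared and each library left out.

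The members and lists were chosen with earlier results of these data known. All members were named in each comparison, together with up to 4 genes of each list by smallest unadjusted p and, for 3 members, the 3 protein-coding genes nearest in pattern. Marker genes, Plg and the undetected family members were named after their values were seen.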

Additional observations from a re-analysis of the deposited data

Results flagged for a closer look

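The change in Mmp15 per mutant allele differed between the sexes by 0.71 on the log2 scale (edgeR, Benjamini-Hochberg adjusted p = 0.0484), with each combination of sex and genotype a single library. The UTRmut library had 1.505 times the WT level in females and 0.563 times in males. DESeq2 gave 0.72 with an unadjusted p of 0.0235 and no adjusted p for this gene.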

How the results depend on the processing

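The count of members that passed stayed at 0 in all alternatives run for the genotype comparisons, the change per allele and females against males. In the sex difference it was 1 (Mmp15) and fell to 0 without the robust option (adjusted p = 0.0706, edgeR), and it was 0 to 1 when a library was left out. Over all genes, calls moved more. UTRmut against WT had 1 call, and 8 with DESeq2, 27 without the filter, 4 with the replicate block, 3 from only the 4 libraries compared and 0 to 103 with a library left out (103 without the WT male, 0 without the UTRmut male). Het against WT had 2 calls, and 13 without the filter, 1 from the 4 libraries and 1 to 30 with a library left out (30 without the WT male). UTRmut against het had 2, and 7 with DESeq2, 28 without the filter, 1 without the robust option, 5 with the replicate block, 10 from the 4 libraries and 0 to 10 with a library left out. The change per allele had 0, and 4 with DESeq2, 19 without the filter and 0 to 36 with a library left out. Females against males had 6, and 10 with DESeq2, 92 without the filter and 5 to 197 with a library left out. The sex difference had 194, and 79 with DESeq2, 600 without the filter, 121 without the robust option and 24 to 736 with a library left out. The replicate numbers stand for sex, and nothing in the labels pairs the animals beyond it. With the longest coding transcript as the length, the level of Mmp14 was 2.29, that of Mmp16 18.3 and that of Mmp24 13.04 CPM per kilobase. Of 507 log2 folds of members under alternatives that gave an adjusted p, 44 had the opposite sign, each with an adjusted p of 0.633 or more. With library totals in place of TMM, UTRmut against het turned to -0.040 in Mmp15 and -0.058 in Mmp16, and the other changes of sign among the 44 came from leaving out a library. Of the 4 DESeq2 folds without an adjusted p, that of Mmp9 in the sex difference also turned, from -0.046 to 0.025. In UTRmut against WT the ranges were Mmp15 -0.55 to 0.35, Mmp16 -0.16 to 0.13, Mmp17 -0.15 to 0.044 and Mmp24 -0.12 to 0.11. In het against WT the ranges were Mmp15 -0.57 to 0.34, Mmp16 -0.16 to 0.13, Mmp17 -0.053 to 0.14 and Mmp24 -0.21 to 0.012. In UTRmut against het the ranges were Mmp9 -0.24 to 0.64, Mmp15 -0.26 to 0.26 and Mmp16 -0.024 to 0.033. In the change per allele the ranges were Mmp2 -0.26 to 0.068, Mmp14 -0.031 to 0.29, Mmp15 -0.25 to 0.15, Mmp16 -0.068 to 0.058, Mmp17 -0.076 to 0.0047 and Mmp24 -0.046 to 0.060. In females against males the ranges were Mmp2 -0.39 to 0.19, Mmp14 -0.19 to 0.013, Mmp15 -0.58 to 0.15, Mmp16 -0.051 to 0.13 and Mmp17 -0.082 to 0.035. In the difference between the sexes per allele the ranges were Mmp9 -0.75 to 0.82, Mmp2 -0.70 to 1.41, Mmp14 -0.97 to 0.52 and Mmp24 -0.11 to 0.21. The cause was not tested. Depth limited Mmp9 and Mmp2 most, with 55 and 120 counts over 6 libraries. A library left out leaves 1 library in its genotype, whose spread is then assumed to be that of the others.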
